A study of Homo sapiens with 54 samples.

Results

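CP2 at 5 µM was compared with vehicle (DMSO) after 48 h in A549 cells, a lung adenocarcinoma line, that carry a USP18 expression vector. The libraries were taken by their labels, 3 treated and 3 vehicle, 6 of the 54 libraries in the series, and 15760 of the 58870 genes in the count table passed a filter on low counts and were tested. The study asked which compounds inhibit USP18 and what they do to lung cancer cells, and the RNA sequencing used here covered A549 cells with an empty vector (EV) or a USP18 expression vector. Expression from either vector was stable according to the series' description, the number of engineered populations behind each vector is not given in the sources used here, and the compounds CP2, CP14 and CP18 are known from the labels by code only. Besides the 6 libraries, 15 others served for comparison, 3 in each of these groups: EV cells with vehicle, EV cells with CP2 at 5 µM, and USP18 cells with CP2 at 2 µM, CP14 at 5 µM or CP18 at 5 µM, all at 48 h. Levels below are counts scaled by library size and the trimmed mean of M-values (CPM), listed in the order of replicates 1, 2 and 3. The sign ± gives the standard error of a log2 fold change, with 3 libraries per group. It comes from the fitted model, which estimates the spread over all groups in the fit, not only those compared. Total expected counts ranged from 19513763 to 23900161 over the 6 libraries. The labels describe capture of polyadenylated RNA, whereas the study's methods describe removal of ribosomal RNA, so that which preparation was used is unclear. The study's general statement on statistics speaks of independent biological repeats as typical, while nothing in the labels states that these replicates were separate cultures, so p-values measure only the spread between these samples, which may be technical.

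The aryl hydrocarbon receptor (AhR) is a transcription factor that waits in the cytosol with HSP90 and co-chaperones, and on binding a ligand moves to the nucleus, pairs with ARNT and switches on genes such as CYP1A1, CYP1B1 and TIPARP. HMOX1 encodes the enzyme that breaks down heme, and its transcription is held back by BACH1 and driven by NRF2 when cells meet oxidants or electrophiles. USP18 removes the ubiquitin-like protein ISG15 from its targets and dampens signalling from the type I interferon receptor.

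USP18 itself was examined to check the labels. USP18 (GRCh38 chr22:18150118-18177397, plus strand) stood at 1311, 1299.6 and 1343 CPM in vehicle-treated USP18 cells and at 1252, 1268 and 1343 CPM with CP2, against 10.6, 10.7 and 11.1 CPM in vehicle-treated EV cells. Every library labelled USP18 lay far above every EV library, and the treated and vehicle USP18 libraries overlapped. The change of USP18 with CP2 did not pass the test (log2 fold change -0.05 ± 0.03, edgeR adjusted p 0.338, 95% interval -0.12 to 0.02). The keratin KRT8 was present at 3717, 3717 and 3848 CPM in vehicle and 3427, 3434 and 3429.9 CPM in treated libraries, all 3 of which were lower. Of 11 epithelial markers 8 were tested, 3 fell and none rose, with a median log2 fold change of -0.16. For the keratin KRT18 the fall lost its call without any 1 of the 6 libraries (edgeR adjusted p 0.0557 to 0.137) and with all 54 libraries in the fit (0.0769). Markers of other cell types were low: the 6 fibroblast genes summed to 7.88 to 9.33 CPM per library with COL1A1 highest, and of the 3 tested COL3A1 fell (log2 fold change -0.86 ± 0.20, edgeR adjusted p 0.00507; median over the 3 -0.52). The 6 leukocyte genes summed to 34.3 to 38.2 CPM, of which CD68 made up 31.9 to 35.5 CPM, while PTPRC and CD3E were at 0 counts, and the 4 endothelial genes summed to 0.551 CPM at most. Neither of the 2 leukocyte genes tested passed (median -0.29), and no endothelial gene was high enough to test.

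CP2 at 5 µM changed many genes by a little and few by much. At an adjusted p under 0.05 and an absolute log2 fold change over 1, 122 genes were called by edgeR's quasi-likelihood test (0.774% of those tested), 27 higher and 95 lower with CP2. Without the limit on fold change, 1364 genes rose (8.65%) and 1625 fell (10.3%), and 2534 of these 2989 genes (84.8%) had an absolute log2 fold change under 0.5. The 3 treated and 3 vehicle libraries did not overlap for 6101 genes (38.7%) and for 116 of the 122 called genes. The median log2 fold change over all 15760 genes was -0.01. Lists of genes below are read against these shares. The count of 122 became 209 without a filter on low counts, 48 with at least 10 counts required in every library and 65 with DESeq2, each time with more falls than rises (81 and 128, 9 and 39, 12 and 53). Without CP2 replicate 1 there were 14 rises and 101 falls, and without CP2 replicate 2 there were 17 rises and 84 falls. The 2989 genes without the limit on fold change became 2558 with DESeq2 and 3954 with only the 2 groups compared in the fit. They became 2064 to 2248 without single libraries, so the shares of all genes depend on the setting too.

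**Figure D1:**
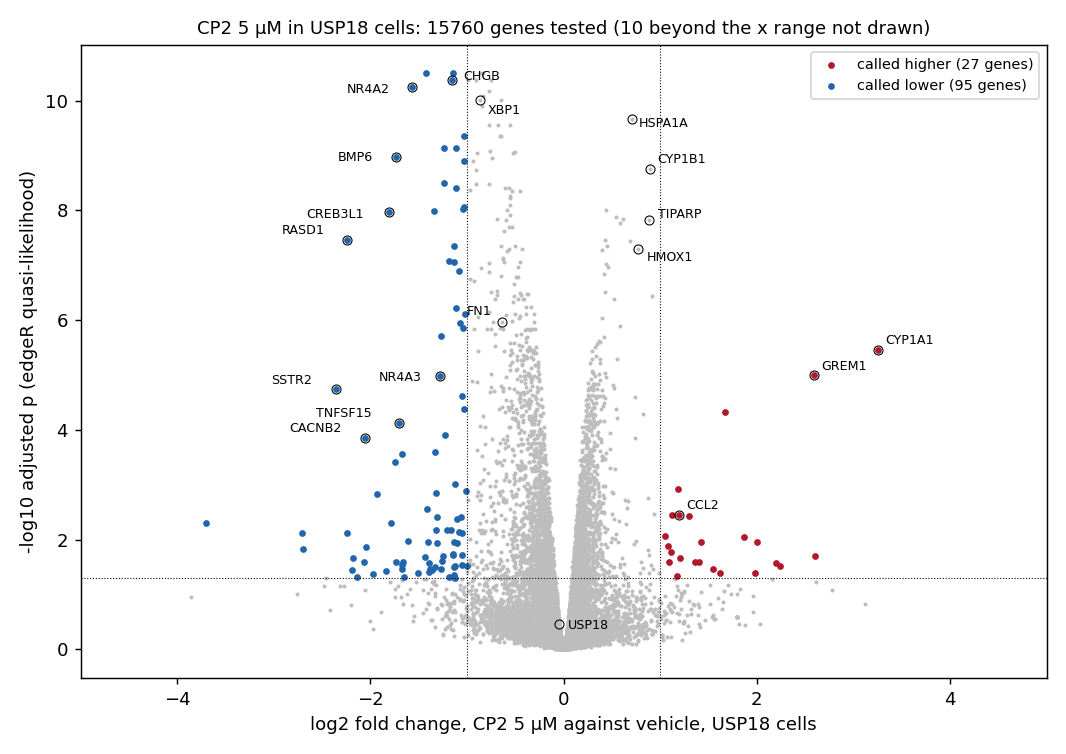
Each point is 1 of the 15760 genes tested, with the log2 fold change of CP2 5 µM against vehicle in USP18 cells on the x axis and -log10 of the edgeR adjusted p on the y axis; 27 genes were called higher (red) and 95 lower (blue), and dotted lines mark the thresholds. CYP1A1 and GREM1 lie far to the right, the falls of NR4A2, CHGB and XBP1 sit near the top, and USP18 lies near 0; 10 genes beyond a log2 fold change of 5 are not drawn.

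Of 11 AhR targets tested, 5 were higher after CP2, 1 was lower and 5 did not pass. Bases upstream of CYP1A1 and TIPARP are shown because the AhR with ARNT is known to bind a core of GCGTG, the xenobiotic response element, and both genes rose. The search covered the 250 bases upstream of a start of transcription given by RefSeq on both strands, in sequences of GRCh38.p14, and 113 of the 162 named genes had an entry. Such a start can lie inside the outer limits of the gene in the annotation used for positions, as for TIPARP, HSP90B1 and HSPA8. Capitals mark GCGTG or its reverse complement, and the core occurs in 32.2% of the 35116 upstream windows of all genes.
CYP1A1 (chr15:74725561-74725605, minus strand, 77 to 33 bases upstream): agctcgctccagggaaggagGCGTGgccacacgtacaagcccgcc
TIPARP (chr3:156674362-156674472, plus strand, 228 to 118 bases upstream): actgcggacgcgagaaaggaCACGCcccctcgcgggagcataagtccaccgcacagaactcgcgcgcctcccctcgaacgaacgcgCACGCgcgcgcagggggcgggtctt
Of 8 genes of the AhR response searched, 6 had an entry and 3 held the core in this window, CYP1A1 with 1 copy, TIPARP with 2 and AHRR with 1; CYP1B1 and ALDH3A1 had no entry. A match is a description of letters, and binding was not measured.

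CYP1A1, the cytochrome P450 whose induction is the classical readout of the AhR, was at 0.2, 0.491 and 0.145 CPM in vehicle libraries and at 2.94, 2.31 and 3.02 CPM with CP2. The lowest treated library was above the highest vehicle library, although the vehicle values rest on 4, 10 and 3 counts. CYP1A1 (GRCh38 chr15:74719542-74725536, minus strand) rose 9.58-fold (log2 fold change 3.26 ± 0.36, edgeR adjusted p 3.44e-06, 95% interval 2.51 to 4.01). CYP1B1, a related P450 of estrogen and arene metabolism, went from 98.4, 92.3 and 101 CPM to 174, 186 and 188 CPM, with no overlap (log2 fold change 0.89 ± 0.05, edgeR adjusted p 1.74e-09). TIPARP, a mono-ADP-ribosyltransferase that restrains the AhR, went from 42.3, 42 and 45.4 CPM to 77.7, 82.7 and 82.7 CPM, and here too the groups were far apart (log2 fold change 0.89 ± 0.06, edgeR adjusted p 1.48e-08). ALDH3A1, an aldehyde dehydrogenase known as an AhR target, was already abundant at 440.0, 444 and 429 CPM and stood at 543, 550.3 and 554 CPM with CP2 (log2 fold change 0.31 ± 0.04, edgeR adjusted p 9.2e-06). The AhR repressor AHRR has 2 gene models in the table, of which 1 was too low to test; the other was at 2.41, 2.4 and 3.48 CPM in vehicle and 3.53, 3.8 and 4.06 CPM in treated libraries, which did not pass the test (log2 fold change 0.43 ± 0.17, edgeR adjusted p 0.0928). Of the 12 AhR targets listed, 11 were tested: 5 rose (CYP1A1, CYP1B1, TIPARP, ALDH3A1 and NQO1) and 1 fell, NEDD9, a scaffold protein of cell adhesion (log2 fold change -0.53 ± 0.04, edgeR adjusted p 1.98e-08), with a median log2 fold change of 0.14.

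The receptor's own partners moved apart from the receptor. AHR was at 133, 137 and 140.4 CPM in vehicle and at 91.7, 90.4 and 90.5 CPM in treated libraries, all 3 of which were lower (log2 fold change -0.61 ± 0.04, edgeR adjusted p 3.93e-09). The HSP90 genes that hold the receptor were higher, HSP90AA1 at 3188, 3260.5 and 3324 CPM against 2342, 2369.5 and 2370.1 CPM (log2 fold change 0.45 ± 0.03, edgeR adjusted p 4.5e-08) and HSP90AB1 with a log2 fold change of 0.25, and so was the co-chaperone PTGES3, also called p23 (log2 fold change 0.22). ARNT and ARNT2 did not pass the test, and genes of the AhR machinery gave 3 rises and 1 fall among 7 (median 0.15).

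HMOX1 rose with some of the NRF2 targets. HMOX1 (GRCh38 chr22:35380361-35394214, plus strand) was at 60.3, 57.1 and 58.6 CPM in vehicle libraries and at 94.6, 103 and 106 CPM with CP2. Each treated library exceeded each vehicle library by more than the spread within groups, a rise of 1.7-fold (log2 fold change 0.77 ± 0.06, edgeR adjusted p 5.01e-08). SQSTM1, the autophagy receptor p62, went from 821, 814 and 827 CPM to 1076, 1089 and 1110.3 CPM (log2 fold change 0.39 ± 0.03, edgeR adjusted p 5.35e-08), and OSGIN1, a growth inhibitor induced by oxidative stress, had a log2 fold change of 0.41. SRXN1, which repairs oxidised peroxiredoxins, and GCLC and GCLM, the subunits of the enzyme that starts glutathione synthesis, had log2 fold changes of 0.30, 0.26 and 0.24. Glutathione peroxidase GPX2 went the other way, from 249, 246 and 265 CPM to 187, 181 and 200.1 CPM (log2 fold change -0.44 ± 0.06, edgeR adjusted p 5.55e-05), and so did the aldo-keto reductase AKR1C1 (-0.28), a member of a family of near-identical genes whose read split is uncertain. Of 34 NRF2 targets tested 10 rose and 4 fell, with a median of 0.08; thioredoxin reductase TXNRD1 (0.06) and the cystine carrier SLC7A11 (0.07) were among the 20 that did not pass.

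Around heme and quinones the changes were small. The iron-storage subunits FTH1 and FTL rose with log2 fold changes of 0.21 and 0.18, at levels of 3267, 3358 and 3376 CPM and 6851, 6891 and 6787 CPM in treated libraries, and with HMOX1 and its paralogue HMOX2 they made up the 4 rises among 17 genes of heme and iron handling, against 2 falls (median 0.03). HMOX2 lost its call when vehicle replicate 1 or 3 was left out (adjusted p 0.0694 and 0.0597). NQO1, the 2-electron reductase of quinones, went from 1356, 1390.0 and 1378 CPM to 1486, 1556 and 1560.3 CPM (log2 fold change 0.14 ± 0.03, edgeR adjusted p 0.00362). The 12 quinone reductases listed gave 4 rises and 3 falls, with a median of 0.10; among the falls was POR, which passes electrons to cytochromes P450 (-0.17). Of those rises NQO2 lost its call without any 1 of the 6 libraries, with DESeq2 and with replicate as block (adjusted p 0.0508 to 0.181), and CBR1 without vehicle replicate 1 or 2 or CP2 replicate 1 or 2 (0.0809 to 0.159). Genes of conjugation and export of xenobiotics gave 1 rise and 1 fall among 17 tested, SULT1A3 and ABCC3 (-0.23), a median of 0.02 that turned negative without CP2 replicate 2 or 3 (-0.021 and -0.032). SULT1A3 shares its sequence with a copy and is uncertain, and its call was lost without CP2 replicate 2 or vehicle replicate 3 (adjusted p 0.122 and 0.102) and with all 54 libraries in the fit (0.173). Of the metallothioneins and zinc exporters 4 of 9 were tested and MT2A rose (log2 fold change 0.35 ± 0.08, edgeR adjusted p 0.00334), while the median was -0.13.

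**Figure D2:**
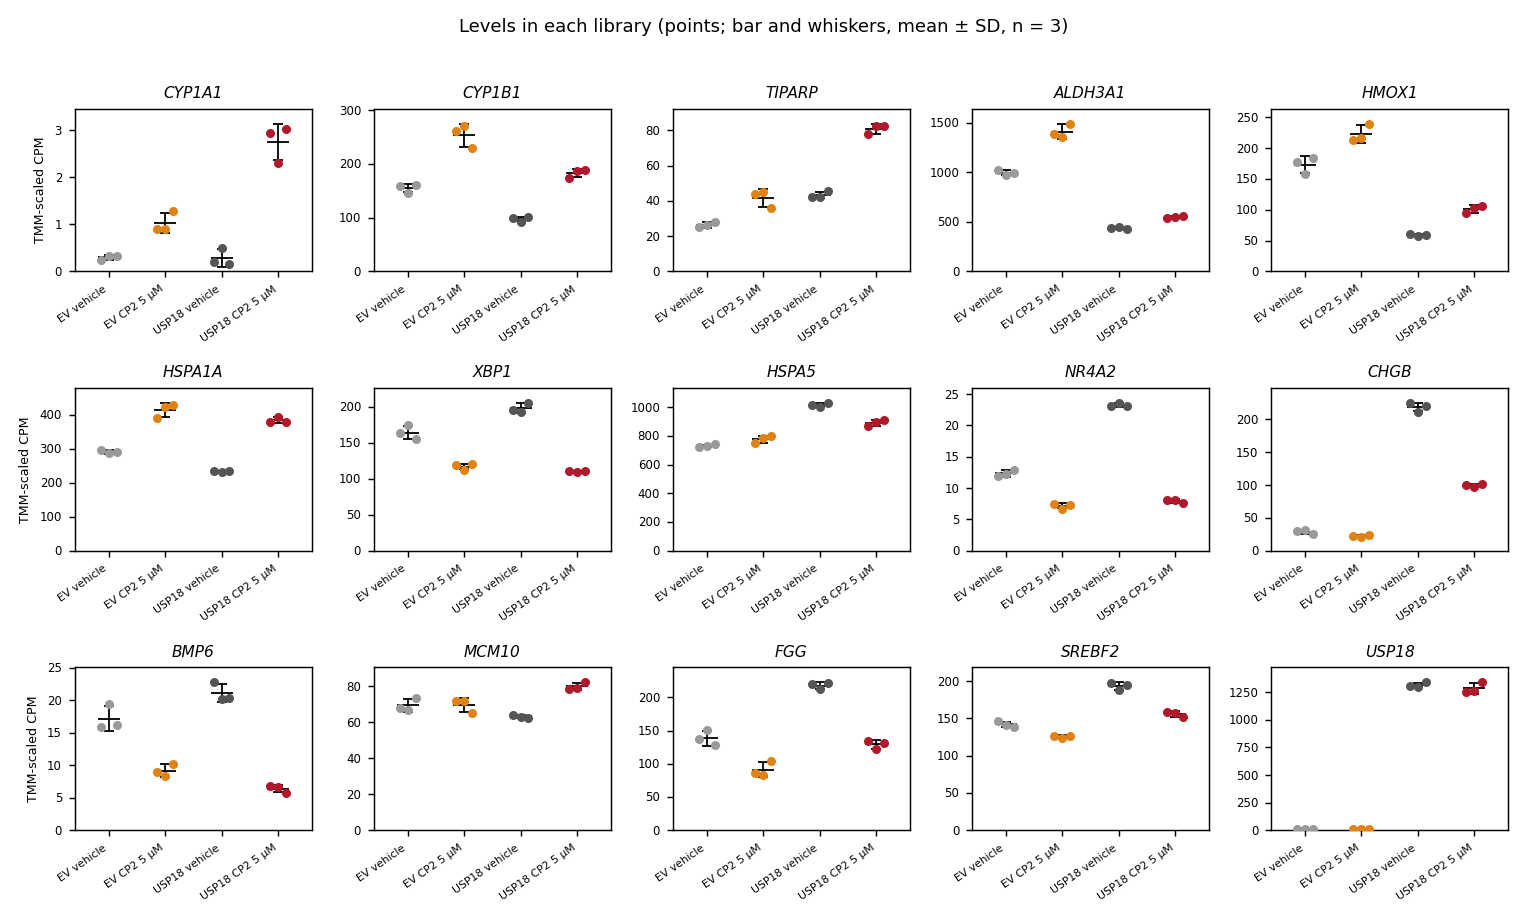
TMM-scaled CPM of 15 genes in each library (points) with mean ± SD over 3 libraries, for EV and USP18 cells with vehicle or CP2 5 µM; each y axis starts at 0. The 3 treated USP18 libraries lie above vehicle for CYP1A1, CYP1B1, TIPARP, HMOX1 and HSPA1A and below it for XBP1, NR4A2, CHGB, BMP6 and FGG, while USP18 overlaps.

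Most heat shock genes listed were higher, and most chaperones of the endoplasmic reticulum (ER) lower. HSPA1A, an inducible HSP70, was at 235, 230.5 and 234 CPM in vehicle and 379.5, 395 and 379 CPM in treated libraries, which did not overlap (log2 fold change 0.70 ± 0.04, edgeR adjusted p 2.2e-10); its neighbour HSPA1B is nearly identical and gave a similar value (0.61), so that how reads divide between them is uncertain. HSPA8, the constitutive HSP70, went from 1817, 1838 and 1856 CPM to 2415, 2461 and 2559 CPM (log2 fold change 0.41 ± 0.04, edgeR adjusted p 1.42e-07), and DNAJA1, an HSP40 partner, from 411, 410.5 and 409 CPM to 546, 548.6 and 576 CPM (log2 fold change 0.42 ± 0.03, edgeR adjusted p 3.41e-08). CHORDC1, HSPH1, FKBP4 and DNAJB1 had log2 fold changes of 0.38, 0.40, 0.31 and 0.29. Of 17 heat shock genes 14 rose and none fell, with a median of 0.29; HSPB1, HSPA4 and the nearly silent CRYAB did not pass.

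XBP1, a transcription factor of the unfolded protein response, was at 196, 193 and 206 CPM in vehicle libraries and at 110.3, 109 and 111 CPM with CP2. The 3 treated libraries were tightly grouped and all lower (log2 fold change -0.86 ± 0.04, edgeR adjusted p 9.61e-11). The ER chaperones HSPA5 (BiP) and HSP90B1 (GRP94) were at 1017, 998 and 1028 CPM and 1873, 1838 and 1854 CPM in vehicle libraries and at 869.8, 893 and 908 CPM and 1503, 1515 and 1539.6 CPM with CP2. Both were lower in every treated library, HSPA5 by less (log2 fold change -0.21 ± 0.03, edgeR adjusted p 0.000134) than HSP90B1 (log2 fold change -0.31 ± 0.03, edgeR adjusted p 1.09e-06). The disulfide isomerase PDIA4 had a log2 fold change of -0.29, the co-chaperone DNAJB9 -0.40 and the lectin chaperone CALR -0.25. Of 15 genes of this list 14 fell and none rose, with a median of -0.24, and HERPUD1 (-0.09) was the exception.

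Upstream bases of 4 of these genes are shown because they fell together and hold the ER stress response element, CCAAT and CCACG with 9 bases between, which ATF6 and XBP1 proteins are known to use. It was found in 4 of the 6 ER genes searched (XBP1, HSPA5, HSP90B1 and CALR, not PDIA4 or DNAJB9) and in 26 of the 35116 upstream windows (0.074%). These 6 genes were chosen after their values were seen. Capitals mark the element on either strand, 2 copies in HSP90B1.
XBP1 (chr22:28800583-28800641, minus strand, 72 to 14 bases upstream): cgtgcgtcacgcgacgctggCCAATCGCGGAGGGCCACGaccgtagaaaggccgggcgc
HSPA5 (chr9:125241371-125241429, minus strand, 86 to 28 bases upstream): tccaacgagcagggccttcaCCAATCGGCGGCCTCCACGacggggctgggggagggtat
HSP90B1 (chr12:103930196-103930359, plus strand, 214 to 51 bases upstream): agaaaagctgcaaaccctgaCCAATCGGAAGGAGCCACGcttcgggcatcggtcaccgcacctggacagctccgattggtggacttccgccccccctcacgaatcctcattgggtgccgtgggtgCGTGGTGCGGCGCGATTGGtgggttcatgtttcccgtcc
CALR (chr19:12938364-12938422, plus strand, 245 to 187 bases upstream): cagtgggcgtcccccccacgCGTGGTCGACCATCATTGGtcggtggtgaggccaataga
For the heat shock genes, the heat shock element GAA, TTC and GAA with 2 bases between each, or its reverse complement, was searched in HSPA1A, HSPA1B, HSPA8, HSP90AA1, DNAJA1 and HSPH1, also chosen after their values were seen. Only HSPA8 held it in this window, at 2 places, and 0.441% of all windows did. The copy nearer the start is shown.
HSPA8 (chr11:123062159-123062211, minus strand, 75 to 23 bases upstream): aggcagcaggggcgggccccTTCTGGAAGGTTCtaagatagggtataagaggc

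NR4A2 fell strongly, though not among the 12 largest falls. Those 12 were taken only from genes that passed and whose treated and vehicle libraries did not overlap, with a mean of at least 1 CPM in either group. NR4A2, an orphan nuclear receptor encoded by an immediate early gene, was at 23.1, 23.6 and 23.1 CPM in vehicle libraries and at 8.07, 8.12 and 7.6 CPM with CP2. Both groups were narrow and far apart, and NR4A2 fell to 0.337 of its level (log2 fold change -1.57 ± 0.07, edgeR adjusted p 5.72e-11). Its relatives NR4A3 and NR4A1 went from 8.57, 8.59 and 11.1 CPM to 4.24, 3.8 and 3.7 CPM and from 152, 158 and 159 CPM to 103, 90.2 and 85.2 CPM. NR4A3 fell more (log2 fold change -1.28 ± 0.15, edgeR adjusted p 1.04e-05) than NR4A1 (log2 fold change -0.77 ± 0.06, edgeR adjusted p 9.21e-08). Of the 12 largest falls, RASD1, a small GTPase first found as induced by dexamethasone, was at 14.2, 14.5 and 16.4 CPM in vehicle and 3.74, 2.69 and 3.18 CPM in treated libraries (log2 fold change -2.24 ± 0.17, edgeR adjusted p 3.41e-08). BMP6, a secreted growth factor that also raises hepcidin and another of the 12, went from 22.8, 20.3 and 20.3 CPM to 6.77, 6.63 and 5.78 CPM (log2 fold change -1.74 ± 0.10, edgeR adjusted p 1.07e-09). CREB3L1, a membrane-bound transcription factor of secretory cells and also one of them, went from 11.6, 11.4 and 13.3 CPM to 3.32, 3.8 and 3.38 CPM (log2 fold change -1.81 ± 0.13, edgeR adjusted p 1.09e-08).

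Another 6 of the 12 largest falls were in genes at low levels. SSTR2, a somatostatin receptor, was at 5.36, 3.98 and 5.51 CPM in vehicle and 0.841, 0.865 and 1.25 CPM in treated libraries (log2 fold change -2.35 ± 0.30, edgeR adjusted p 1.83e-05). CACNB2, a calcium channel subunit, had 1.85, 2.16 and 1.98 CPM and 0.672, 0.432 and 0.312 CPM (log2 fold change -2.06 ± 0.32, edgeR adjusted p 0.000138), and TNFSF15, a cytokine of the TNF family, 2.36, 2.36 and 3.05 CPM and 0.841, 0.625 and 0.937 CPM (log2 fold change -1.70 ± 0.25, edgeR adjusted p 7.36e-05). RASGEF1B, a guanine nucleotide exchange factor, fell as well (log2 fold change -1.68 ± 0.28, edgeR adjusted p 0.000276), as did the transcripts SCAT8 and TAF11L11 (log2 fold changes -1.93 and -1.75). Chosen after their values were seen, chromogranin CHGB went from 225, 212 and 220.1 CPM to 101, 96.4 and 101 CPM (log2 fold change -1.16 ± 0.05, edgeR adjusted p 4.13e-11), and SCG2, another granin, from 28.5, 26 and 26.9 CPM to 16.5, 16.6 and 16.8 CPM (log2 fold change -0.73 ± 0.07, edgeR adjusted p 1.08e-06). Granins fill the secretory granules of neuroendocrine cells. CREM, a regulator of genes driven by cyclic AMP, and the phosphodiesterases PDE4D and PDE4B, which break cyclic AMP down, were likewise picked from their values and had log2 fold changes of -0.42, -0.37 and -0.28, while the granin-family gene VGF did not pass (0.17).

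Several of these genes are known to respond to cyclic AMP through elements with the core TGACG, so their upstream bases were searched. Of 12 genes (NR4A1, NR4A2, NR4A3, RASD1, SSTR2, BMP6, CREB3L1, CREM, SCG2, CHGB, CACNB2 and TNFSF15), chosen after their values were seen, 9 had an entry and 3 held TGACG or its reverse complement, against 21.2% of all windows. The full palindrome, TGACG running into TCA and found in 1.65% of all windows, was in none of the 9. The 3 windows are shown with the core in capitals, 4 copies in NR4A3, 2 in RASD1 and 1 in SSTR2.
NR4A3 (chr9:99821756-99821884, plus strand, 129 to 1 bases upstream): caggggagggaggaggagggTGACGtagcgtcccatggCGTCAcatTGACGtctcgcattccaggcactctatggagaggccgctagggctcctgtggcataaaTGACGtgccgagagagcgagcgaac
RASD1 (chr17:17496449-17496548, minus strand, 153 to 54 bases upstream): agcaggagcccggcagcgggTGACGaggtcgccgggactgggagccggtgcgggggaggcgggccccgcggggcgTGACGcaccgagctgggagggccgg
SSTR2 (chr17:73164932-73164976, plus strand, 78 to 34 bases upstream): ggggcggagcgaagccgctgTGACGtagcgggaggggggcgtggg

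Not all immediate early genes fell. FOSL1, a partner of JUN in AP-1, was at 14.5, 12.5 and 15.4 CPM in vehicle and 24.3, 23.2 and 24.2 CPM in treated libraries, and JUN at 26.7, 25.9 and 27.5 CPM and 46.1, 41.4 and 42.8 CPM. Both were higher in every treated library (log2 fold change 0.74 ± 0.10, edgeR adjusted p 2.54e-05 for FOSL1; log2 fold change 0.69 for JUN). EGR1, a zinc finger factor of growth signalling, rose too (log2 fold change 0.44 ± 0.05, edgeR adjusted p 1.09e-05), while FOSB did not pass (-0.06). Of 18 immediate early genes tested 5 rose and 7 fell, with a median of -0.08.

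Among the 12 leading rises, GREM1 stood next to CYP1A1. GREM1, a secreted antagonist of bone morphogenetic proteins, was at 0.702, 0.883 and 1.11 CPM in vehicle libraries and at 4.08, 7.45 and 5.05 CPM with CP2. The treated values varied more than the vehicle values (log2 fold change 2.59 ± 0.31, edgeR adjusted p 1.02e-05). Like the falls, the 12 rises were taken only from genes whose treated and vehicle libraries did not overlap. CCL2, a chemokine for monocytes, was at 1.8, 0.982 and 2.51 CPM and 4.08, 4.23 and 4.01 CPM (log2 fold change 1.19 ± 0.26, edgeR adjusted p 0.00349). INSYN2B went from 1, 0.932 and 0.871 CPM to 3.11, 2.83 and 3.12 CPM (log2 fold change 1.67 ± 0.23, edgeR adjusted p 4.63e-05), QRICH2 from 0.651, 0.736 and 0.532 CPM to 1.64, 1.59 and 1.56 CPM (log2 fold change 1.29 ± 0.29, edgeR adjusted p 0.00367), and the noncoding RNA BCYRN1 from 1.85, 1.82 and 2.27 CPM to 6.01, 3.89 and 3.65 CPM (2.27-fold, edgeR adjusted p 0.00119). DDN (log2 fold change 1.42), the histone gene HIST4H4 (1.21) and AC005324.3 (1.36) rose at low levels. Their calls were lost without single libraries: DDN without CP2 replicate 1 (adjusted p 0.0731) or vehicle replicate 2 (0.063), HIST4H4 without vehicle replicate 1 (0.106) or CP2 replicate 1 or 2 (0.0969 and 0.0654), and AC005324.3 without any of the 3 vehicle libraries (0.0591 to 0.0939) or without CP2 replicate 1 or 2 (0.111 and 0.103).

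The rest of the leading changes were uncertain. UTP14C, which overlaps other genes and has a near-identical relative, was at 0, 4.32 and 2.47 CPM and 7.61, 13.3 and 6.87 CPM, and its rise lost the call without CP2 replicate 2 (adjusted p 0.0678) and with DESeq2 (0.19). CU634019.1, a model with near-identical copies, was at 0, 0 and 0.0484 CPM and 3.11, 10.9 and 0.0521 CPM, and 1 treated library was as low as the vehicle libraries; the vehicle group held at most 1 rounded count in a library, and the call was lost without CP2 replicate 2 (0.115) or any vehicle library (0.0692 to 0.0778). The readthrough model INO80B-WBP1 was at 4.26, 0.54 and 1.5 CPM in vehicle libraries and at 0 counts in every treated library, at least 13.4-fold lower against a floor of 3 counts per library, or 6.53-fold without vehicle replicate 1, but its reads can belong to either parent gene. POTEE, of a family of near-identical genes, was at 6.56, 1.08 and 1.11 CPM and 0.756, 0.432 and 0.104 CPM, and the fall lost its call without vehicle replicate 1 (0.237) or CP2 replicate 2 or 3 (0.0572 and 0.0714). The noncoding AC022400.5 was at 1.25, 1.77 and 0.532 CPM and 0.462, 0.0961 and 0.156 CPM, and lost its call without vehicle replicate 2 (0.0562). With all 54 libraries in the fit AC005324.3 (0.0573) and CU634019.1 (0.119) lost their calls too. The share of RNAs without a poly(A) tail was also fitted as a covariate, a setting chosen after seeing the data. There INO80B-WBP1 (0.0617), POTEE (0.0754), AC005324.3 (0.0616) and HIST4H4 (0.119) lost their calls. Floors cover counting error only.

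Of 9 RNAs without a poly(A) tail tested, only RN7SL2 passed in the main fit, and its call was fragile. RN7SL2, an RNA of the signal recognition particle, was at 16, 37.2 and 15.2 CPM in vehicle and 102, 81.8 and 90.2 CPM in treated libraries, with its near copy RN7SL1 at 20.7, 40.9 and 21.7 CPM and 97.5, 81 and 95.6 CPM. The vehicle libraries were uneven, replicate 2 being the highest, yet lay below all treated libraries for both. RN7SL2 passed (log2 fold change 1.98 ± 0.65, edgeR adjusted p 0.0403) and RN7SL1 did not (adjusted p 0.0668); the division of reads between them is uncertain, and RN7SL2 lost its call without any 1 of the libraries other than vehicle replicate 2 (0.0745 to 0.149) and with DESeq2 (0.0907). In some other settings more of them passed, with fold changes near those of the main fit. RN7SK passed with only the 2 groups compared in the fit (edgeR adjusted p 0.0171). Without a filter on low counts RN7SK, RMRP and RPPH1 passed (edgeR adjusted p 2.13e-13, 2.1e-09 and 7.98e-09). None of these passed with RLE factors, at least 10 counts in every library, replicate as block, DESeq2, all 54 libraries or any 1 library left out. With the share of RNAs without a poly(A) tail as a covariate their log2 fold changes turned negative (-1.02, -1.11 and -1.32, edgeR adjusted p 0.00199, 0.00189 and 0.00618). Of 16 such RNAs listed, 9 gene models were tested in the main fit, 1 rose and none fell, with a median of 1.23, against -0.74 in EV cells. These RNAs took 0.00477%, 0.0113% and 0.00497% of all counts in the vehicle libraries and 0.0224%, 0.0199% and 0.0235% in the treated libraries. Their share thus separates the groups, so its part in the other results cannot be told from that of the treatment in these libraries. None of the 13 mitochondrially encoded genes passed the test (median 0.03, from -0.116 to 0.099 without single libraries).

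Among genes that mark the hepatocyte-like side of A549 cells, 7 of 11 tested fell. The fibrinogen chains FGA, FGB and FGG were at 372, 366 and 387, at 405, 397 and 419 and at 220.1, 212 and 221 CPM in vehicle libraries and at 243, 241 and 257, at 253, 255 and 260.5 and at 135, 122 and 132 CPM with CP2. For all 3 chains each treated library lay below each vehicle library, with log2 fold changes of -0.62, -0.69 and -0.77 (edgeR adjusted p 8.54e-08, 3.43e-07 and 1.3e-07). FOXA1, a pioneer transcription factor of endoderm, and APOH, a plasma lipid-binding protein, fell by less (-0.45 and -0.42). Of 16 listed genes 11 were tested, 7 fell and none rose (median -0.42); ALB, AFP, APOA1, APOB and TTR were too low to test. In bulk RNA, fewer cells making a transcript and less of it per cell cannot be told apart.

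Of 22 cholesterol genes 12 were lower. SREBF2, the master transcription factor of the pathway, went from 198, 188 and 195 CPM in vehicle to 158, 158 and 152 CPM in treated libraries, with no overlap (log2 fold change -0.33 ± 0.03, edgeR adjusted p 1.48e-06), and the sterol carrier STARD4, the oxidase MSMO1 and the sensor INSIG1 had log2 fold changes of -0.41, -0.33 and -0.30. HMGCS1 (-0.11) and SQLE (-0.05) did not pass. None of the 22 rose, and their median was -0.15.

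Among genes of DNA replication 16 of 25 rose. UHRF1, which carries DNA methylation through replication, was at 70, 72 and 72.3 CPM in vehicle libraries and at 92.1, 93.8 and 95.2 CPM with CP2, and the initiation factor MCM10 at 64.1, 63.2 and 62.4 CPM and 78.4, 79.2 and 82.2 CPM. Every treated library was higher (log2 fold change 0.37 ± 0.04, edgeR adjusted p 2.48e-06 for UHRF1; log2 fold change 0.32 ± 0.05, edgeR adjusted p 7.95e-05 for MCM10). CLSPN, FEN1, RRM2 and MCM2, for checkpoint signalling, flap removal, nucleotide supply and the replicative helicase, had log2 fold changes of 0.32, 0.29, 0.24 and 0.22. None of the 25 fell, and all rises were under a log2 fold change of 0.5 (median 0.19). Of 26 mitosis genes 13 rose and none fell (median 0.14), among them CDC20 (0.30), UBE2C (0.25) and CCNB1 (0.24), while MKI67 at 485, 474 and 483 and 491, 532 and 581 CPM did not pass (log2 fold change 0.14 ± 0.07, edgeR adjusted p 0.22).

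Stress and amino acid genes gave mixed changes. CTH, which makes cysteine from cystathionine, was at 13.3, 13.3 and 13.3 CPM in vehicle libraries and at 6.26, 7.54 and 6.09 CPM with CP2, lower in every treated library (log2 fold change -1.02 ± 0.10, edgeR adjusted p 7.73e-07). Other ATF4 targets rose, among them PSAT1 and PHGDH of serine synthesis (0.33 and 0.23), the amino acid carrier SLC7A5 (0.28) and ASNS, which makes asparagine (0.26). In all 13 of 29 rose and 2 fell (median 0.13), and ATF4, DDIT3, TRIB3 and CHAC1 did not pass. Of 28 p53 targets 9 rose and 1 fell (median 0.06), with TP53I3 (0.38), PHLDA3 (0.31) and CDKN1A (0.23) higher and MDM2 (-0.05) not passing.

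Interferon-stimulated (IFN-stimulated) genes rose and fell in shares near those of all genes. OAS1, a sensor of double-stranded RNA, went from 40.7, 42.2 and 39.8 CPM to 24.2, 24.7 and 26.9 CPM and was lower in every treated library (log2 fold change -0.71 ± 0.07, edgeR adjusted p 4.09e-07), and ISG20 fell too (-0.43). ISG15, the modifier that USP18 removes, was near the lower limit at 1.3, 1.42 and 1.79 CPM and 1.6, 1.15 and 1.67 CPM and did not pass (log2 fold change -0.05 ± 0.26, edgeR adjusted p 0.922). Of 36 IFN-stimulated genes tested 3 rose (8.33%, against 8.65% of all genes) and 4 fell (11.1% against 10.3%) (median 0.00). Among the 7 genes of ISG15 conjugation tested 2 rose and none fell (median 0.16), the ligase TRIM25 (log2 fold change 0.18 ± 0.04, edgeR adjusted p 0.0057) and the conjugating enzyme UBE2L6 (0.18). The UBE2L6 call was lost without any 1 of the 6 libraries (adjusted p 0.055 to 0.166) and with DESeq2 (0.084). It was also lost with replicate as block (0.0579), without a filter on low counts (0.0574) and with all 54 libraries in the fit (0.0602).

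Among other programs, fibronectin FN1 fell from 243, 216 and 241 CPM in vehicle to 145, 149 and 163 CPM in treated libraries (log2 fold change -0.63 ± 0.06, edgeR adjusted p 1.09e-06), as did the adhesion protein CDH1 (-0.40), and the inhibitory SMAD7 rose (0.48). Genes of EMT and TGF-beta gave 4 rises and 3 falls among 17 (median -0.02, from -0.058 to 0.049 without single libraries). CXCL8, a neutrophil chemokine, fell from 17.4, 19.1 and 20.8 CPM to 11.3, 11.6 and 11.3 CPM (log2 fold change -0.76 ± 0.10, edgeR adjusted p 2.07e-05), while BIRC3, an inhibitor of cell death, rose (0.30); NF-kB cytokines and feedback genes gave 4 rises and 3 falls among 14 (median -0.07, from -0.135 to 0.073 without single libraries). PFKFB3, which sets the pace of glycolysis, went from 331, 323 and 337 CPM to 447, 458 and 459 CPM and was the only riser of 18 hypoxia and glycolysis genes (log2 fold change 0.44 ± 0.03, edgeR adjusted p 1e-08), against 5 falls with CA9 (-0.75) and NDRG1 (-0.44) among them (median -0.06).

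**Figure D3:**
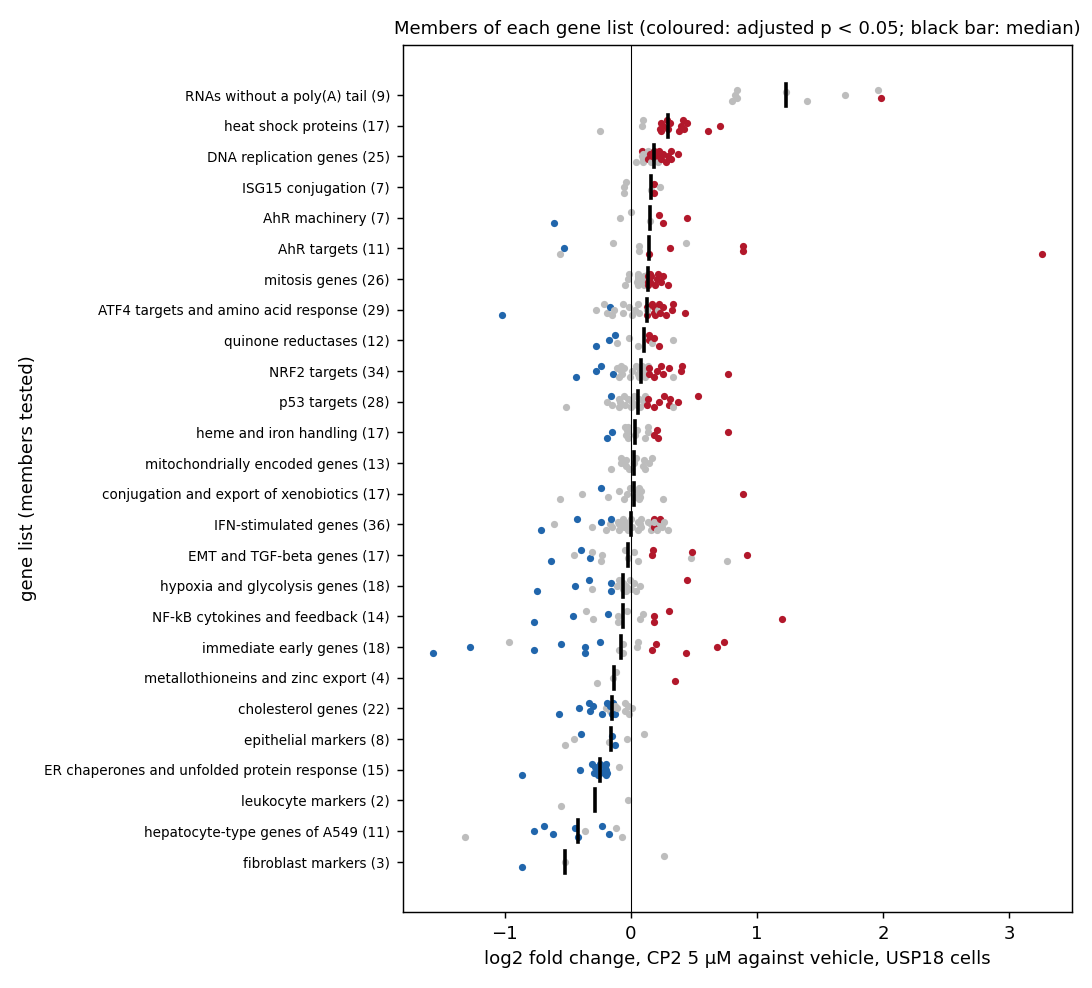
Log2 fold change of CP2 5 µM against vehicle in USP18 cells (x axis) for the tested members of each gene list (y axis, number tested in brackets); coloured points passed at an adjusted p under 0.05 and black bars are medians. Heat shock (14 of 17) and DNA replication genes (16 of 25) lie to the right, ER chaperones (14 of 15), cholesterol genes (12 of 22) and hepatocyte-type genes (7 of 11) to the left.

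The same treatment of EV cells, with their own vehicle libraries, showed where the response of USP18 cells differed. In EV cells 56 genes were called (0.355%), 24 higher and 32 lower, and at an adjusted p under 0.05 alone 837 rose (5.31%) and 1076 fell (6.83%). The call was shared by 14 genes, 11.5% of the calls in USP18 cells and 25% of those in EV cells, 12 of them in the same direction. At an adjusted p under 0.05 alone 1179 genes were shared, 39.4% and 61.6% of the sets, 1168 in the same direction. The difference between the responses passed the test for 145 genes (0.92%), 103 with the lower and 42 with the higher value in USP18 cells, and for 126 of them the change was larger in USP18 cells. That count ranged from 87 to 267 when single libraries were left out, with 87 without EV vehicle replicate 3 and 267 without CP2-treated EV replicate 3, and was 221 with DESeq2 and 438 without a filter on low counts. The balance of 103 lower to 42 higher narrowed without any 1 of the 6 EV libraries, without a filter on low counts (253 to 185), with DESeq2 (128 to 93) and with all 54 libraries (80 to 62), and was lost without CP2-treated EV replicate 3 (131 to 136). The CP2-treated EV libraries also differed most between replicates, with a chi-square per gene of 7.19 to 8.91 against at most 4.85 in the other groups. The 56 calls in EV cells became 130 without a filter, 11 with at least 10 counts in every library, 6 with DESeq2, 32 with EV libraries alone and 24 to 74 without single libraries. The 1913 genes without the limit on fold change, on which the shared 1179 rest, became 1077 with EV libraries alone, 1092 without EV vehicle replicate 2 and 1148 without EV vehicle replicate 1.

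HMOX1 was among the genes that differed. In EV cells it was at 178, 158 and 185 CPM in vehicle and 213, 216 and 240.2 CPM in treated libraries, higher than in USP18 cells in both conditions, with a smaller rise (log2 fold change 0.36 ± 0.05, edgeR adjusted p 0.000209). The difference in log2 fold change was 0.40 ± 0.08 (edgeR adjusted p 0.0179). SQSTM1 differed likewise (0.22, adjusted p 0.0184). CYP1A1 rose in EV cells from 0.235, 0.335 and 0.318 CPM to 0.892, 0.907 and 1.28 CPM (log2 fold change 1.76 ± 0.39, edgeR adjusted p 0.00597), and its difference between the cells did not pass (1.50 ± 0.57, adjusted p 0.293). For CYP1B1 and TIPARP the differences were 0.18 and 0.23 and did not pass either (95% intervals 0.02 to 0.34 and 0.02 to 0.43), and the heat shock genes rose in EV cells too (16 of 17), none with a difference that passed.

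For 9 of 25 replication genes and 6 of 15 ER genes the responses differed between the cells. Of the 25 replication genes none rose and 6 fell in EV cells (median -0.04), and the 9 differences were all toward USP18 cells, with UHRF1 (0.40 ± 0.06, adjusted p 0.00103) and MCM10 (0.31 ± 0.07) among them. UHRF1 was at 92.3, 88.7 and 97.1 CPM in EV vehicle and 90.2, 94.4 and 88.9 CPM in EV treated libraries, which overlapped. Of the 15 ER genes 3 fell in EV cells, and the 6 that differed included XBP1 (-0.38 ± 0.06, adjusted p 0.00221), HSPA5 (-0.30) and HSP90B1 (-0.27). In EV cells HSPA5 was at 725, 727 and 740.0 CPM and 748, 782 and 797 CPM, a change that did not pass (log2 fold change 0.09 ± 0.03, edgeR adjusted p 0.0739).

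CHGB, NR4A2, BMP6 and CREB3L1 fell more in USP18 cells. CHGB was at 30.4, 31.2 and 25.3 CPM in EV vehicle and 22.4, 21.4 and 23.6 CPM in EV treated libraries, far below its level in USP18 cells, and fell there by less (log2 fold change -0.36 ± 0.07, edgeR adjusted p 0.00229; difference -0.80 ± 0.09, adjusted p 0.000127). NR4A2 fell in EV cells from 11.9, 12.2 and 12.9 CPM to 7.43, 6.67 and 7.37 CPM (log2 fold change -0.78 ± 0.08, edgeR adjusted p 4.49e-06), and the difference passed (-0.79 ± 0.11, adjusted p 0.00094). BMP6 and CREB3L1 had differences of -0.84 and -1.34 that passed, and RASD1 and SSTR2 differences of -1.80 and -1.41 that did not. CXCL8 was at 8, 7.71 and 8.83 CPM and 11.8, 10.1 and 8.47 CPM in EV cells, where its change did not pass (log2 fold change 0.32 ± 0.11, edgeR adjusted p 0.0676), and it differed between the cells (-1.08 ± 0.15, adjusted p 0.000764). TNFSF15 gave a difference of -1.95 ± 0.36 (adjusted p 0.0102) at levels under 4 CPM.

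**Figure D4:**
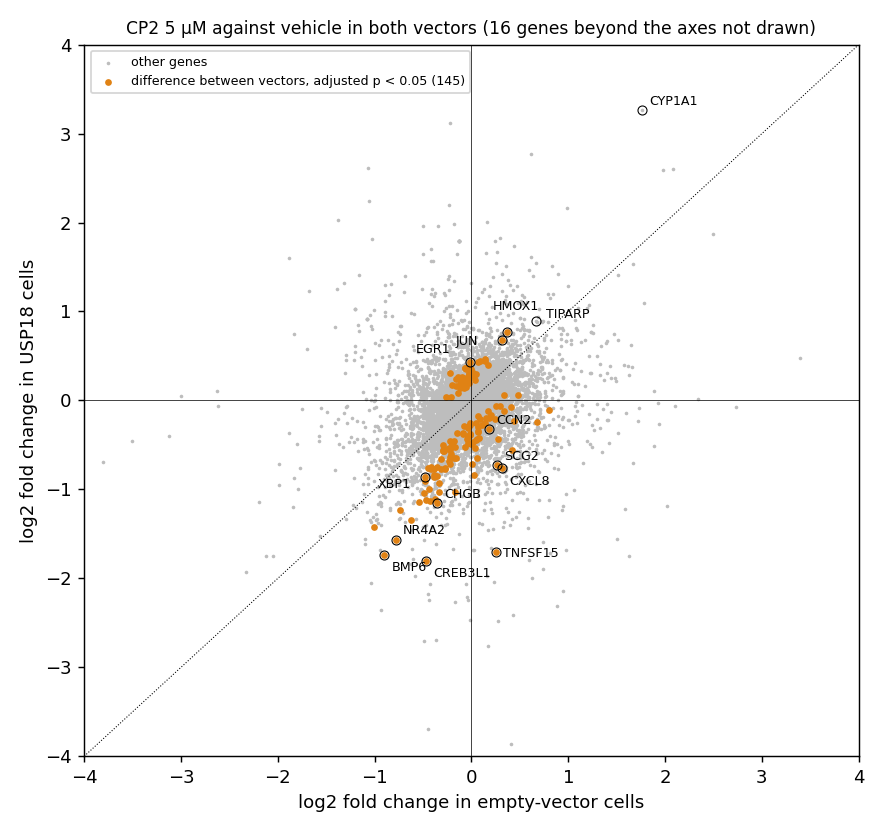
Log2 fold change of CP2 5 µM against vehicle in EV cells (x axis) and in USP18 cells (y axis) for the genes tested; orange points are the 145 genes whose responses differed at an adjusted p under 0.05, and the dotted line marks equal change. NR4A2, CHGB, BMP6 and XBP1 lie below the line and HMOX1, JUN and EGR1 above it; 16 genes beyond 4 on an axis are not drawn.

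Fewer genes were called at 2 µM than at 5 µM. CP2 at 2 µM called 8 genes against vehicle (0.0523%) and 198 without the limit on fold change (1.3%), whereas 5 µM against 2 µM called 97 genes (0.635%) and 3396 (22.2%). The 97 became 217 without a filter, 45 with at least 10 counts in every library and 25 with DESeq2, and the 8 became 60, 2 and 0 in the same settings (1626 genes had an unadjusted p under 0.05 in edgeR). With the share of RNAs without a poly(A) tail as a covariate, chosen after seeing the data, the 97 became 38 and the 3396 became 1001. That share sets CP2 5 µM apart and so cannot be told from dose. Of 9 such RNAs tested, 7 were higher at 5 µM than at 2 µM (median log2 fold change 1.42). The 198 at 2 µM became 398 without a filter, 73 with all 54 libraries and 109 to 173 without single libraries, with 109 without CP2 2 µM replicate 1 and 112 and 119 without vehicle replicate 3 and 2. Comparisons with vehicle at the 2 doses share the vehicle libraries, so values are set side by side. CYP1B1 was at 126, 125 and 133 CPM with 2 µM, between vehicle and 5 µM (log2 fold change 0.50 ± 0.03, edgeR adjusted p 2.36e-09 for 5 against 2 µM). CYP1A1 at 2 µM was at 1.13, 0.651 and 0.773 CPM, above the vehicle libraries and below those at 5 µM (log2 fold change 1.68 ± 0.30, edgeR adjusted p 0.000431). TIPARP was at 54.9, 50.8 and 52.5 CPM (log2 fold change 0.61 ± 0.04, edgeR adjusted p 2.29e-09), NR4A2 at 15.4, 16.6 and 17.2 CPM (log2 fold change -1.06 ± 0.08, edgeR adjusted p 5.35e-09), XBP1 at 164, 173 and 173 CPM (log2 fold change -0.63 ± 0.03, edgeR adjusted p 1.28e-11) and BMP6 at 13.6, 13.9 and 16.1 CPM (log2 fold change -1.19 ± 0.10, edgeR adjusted p 2.55e-08), each between vehicle and 5 µM.

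Other genes followed the dose in different ways. HMOX1 at 2 µM was at 63.9, 60.5 and 58.1 CPM, which overlaps vehicle (log2 fold change 0.05, 95% interval -0.04 to 0.15), and differed between the doses (log2 fold change 0.72 ± 0.04, edgeR adjusted p 3.61e-10). HSPA1A was at 236, 225 and 236 CPM with 2 µM, again like vehicle (95% interval of the log2 fold change -0.06 to 0.05), and differed between the doses (log2 fold change 0.72 ± 0.03, edgeR adjusted p 3.76e-13). SCNN1G, a subunit of the epithelial sodium channel, was at 16.2, 16.69 and 17.4 CPM in vehicle, 16.75, 18.7 and 18.6 CPM with 2 µM and 8.2, 8.12 and 7.08 CPM with 5 µM, and differed between the doses (log2 fold change -1.21 ± 0.08, edgeR adjusted p 2.42e-09). ALDH3A1 had reached 528, 552 and 538 CPM at 2 µM (log2 fold change 0.30 ± 0.02, edgeR adjusted p 6.76e-07 against vehicle), and 5 µM against 2 µM gave a log2 fold change of 0.01 (95% interval -0.03 to 0.06). EGR1 was lower than vehicle at 2 µM (75.9, 82.3 and 78.4 CPM, log2 fold change -0.27 ± 0.05, edgeR adjusted p 0.00377) and higher at 5 µM than at 2 µM (log2 fold change 0.72 ± 0.05, edgeR adjusted p 7.67e-10).

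CP2 was also set against CP14 and CP18 at the matched dose of 5 µM in USP18 cells, 2 pairs in all, with their structures not compared. CP2 and CP14 differed in 2725 genes (17.4%), 1251 higher and 1474 lower with CP2, and in 10980 genes (70.2%) without the limit on fold change. With the share of RNAs without a poly(A) tail as a covariate, chosen after seeing the data, these counts became 2064 and 6470. Of 9 such RNAs tested, 7 were higher with CP2. Their share was higher in every CP2 5 µM library than in any CP14 library, so it cannot be told from the compound. MKI67, a marker of dividing cells, was at 105, 94.8 and 83.9 CPM with CP14 against 491, 532 and 581 CPM with CP2 (log2 fold change 2.48 ± 0.07, edgeR adjusted p 1.44e-17), and FGB at 19.2, 13.8 and 19.5 CPM against 253, 255 and 260.5 CPM (log2 fold change 3.86 ± 0.08, edgeR adjusted p 5.36e-19). ALDH3A1 was at 87, 58.5 and 74.4 CPM with CP14, far below both vehicle and CP2 (log2 fold change 2.89 ± 0.08, edgeR adjusted p 1.41e-17), and GPX2 differed in the same direction (3.74). CYP1A1 was also higher with CP2, at 2.94, 2.31 and 3.02 against 1.68, 1.05 and 1.182 CPM (log2 fold change 1.06 ± 0.28, edgeR adjusted p 0.00207). HMOX1, in contrast, was lower with CP2 than with CP14, which gave 148, 177 and 193 CPM (log2 fold change -0.78 ± 0.07, edgeR adjusted p 5.69e-09), as was TIPARP at 125, 126 and 131 CPM (log2 fold change -0.67 ± 0.04, edgeR adjusted p 2.73e-12), CDKN1A (-1.84) and USP18 (-0.69). In USP18 cells the USP18 counts take transcripts of the vector and of the cells' own gene together. HSPA1A was higher with CP2, where CP14 gave 90.1, 119.9 and 136 CPM (log2 fold change 1.72 ± 0.08, edgeR adjusted p 2.63e-13). SCNN1G had 0 counts in all 3 CP14 libraries against 195, 169 and 136 counts with CP2, at least 50.6-fold higher against the floor of 3 counts, and GREM1 was far lower with CP2 than with CP14, which gave 76.1, 94.3 and 90.3 CPM (16-fold, edgeR adjusted p 3.38e-16).

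Few genes differed between CP2 and CP18. Here 9 genes were called between them (0.0575%), 8 higher and 1 lower with CP2, and 29 without the limit on fold change (0.185%), 1376 at an unadjusted p under 0.05. KRT4, a keratin of wet stratified epithelia, was at 9.79, 10.8 and 9.11 CPM with CP2 and 18, 18.5 and 16.5 CPM with CP18 (log2 fold change -0.84 ± 0.09, edgeR adjusted p 5.51e-05). FOSB was at 8.83, 6.97 and 6.67 CPM and 14.1, 14.6 and 9.39 CPM (log2 fold change -0.76 ± 0.14, edgeR adjusted p 0.0207), and EGR1 (-0.38), NR4A1 (-0.35) and HES1, a target of Notch (-0.49), were lower with CP2 too. TIPARP was higher with CP2, where CP18 gave 69.6, 69.1 and 69.7 CPM (log2 fold change 0.22 ± 0.04, edgeR adjusted p 0.0207), and so was USP18 (0.18, transcripts of the vector and of the cells' own gene together). Among the calls higher with CP2 were RNAs without a poly(A) tail, RNA5-8SN1 and its copies RNA5-8SN2, RNA5-8SN3 and RF00002 with the same values (1.80), and RN7SL1 and RN7SL2 (1.52 and 1.56). The 16 listed RNAs of this kind, which leave out the 5.8S models, took 0.00663%, 0.00737% and 0.00874% of counts in the CP18 libraries, less than in any CP2 5 µM library. The count of 9 was 60 without a filter on low counts, 5 with DESeq2, 2 to 7 without single libraries and 0 when all 54 libraries were fitted. The 29, on which the genes named here rest, became 218 without a filter, 43 with at least 10 counts in every library, 48 with DESeq2, 14 with all 54 libraries and 9 to 40 without single libraries, so the count depends on the setting. With the share of RNAs without a poly(A) tail as a covariate, chosen after seeing the data, the 29 became 1. That share was lower in every CP18 library than in any CP2 5 µM library, so it cannot be told from the compound.

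A p that misses the threshold does not show that CP2 and CP18 act alike, so intervals are given. HMOX1 was at 86, 73.5 and 75.2 CPM with CP18, and the difference was 0.36 (95% interval 0.20 to 0.52, edgeR adjusted p 0.055). For CYP1A1, at 1.77, 1.81 and 1.33 CPM with CP18, the difference was 0.74 (0.18 to 1.31, adjusted p 0.398), and for CYP1B1 0.21 (0.09 to 0.34). HSPA1A, XBP1, NR4A2 and BMP6 were at 395, 365 and 351, at 111, 123 and 129.7, at 8.3, 7.83 and 8.97 and at 7.18, 7.99 and 7.38 CPM with CP18, and their differences had 95% intervals of -0.11 to 0.21, -0.26 to -0.02, -0.27 to 0.12 and -0.45 to -0.01.

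**Figure D5:**
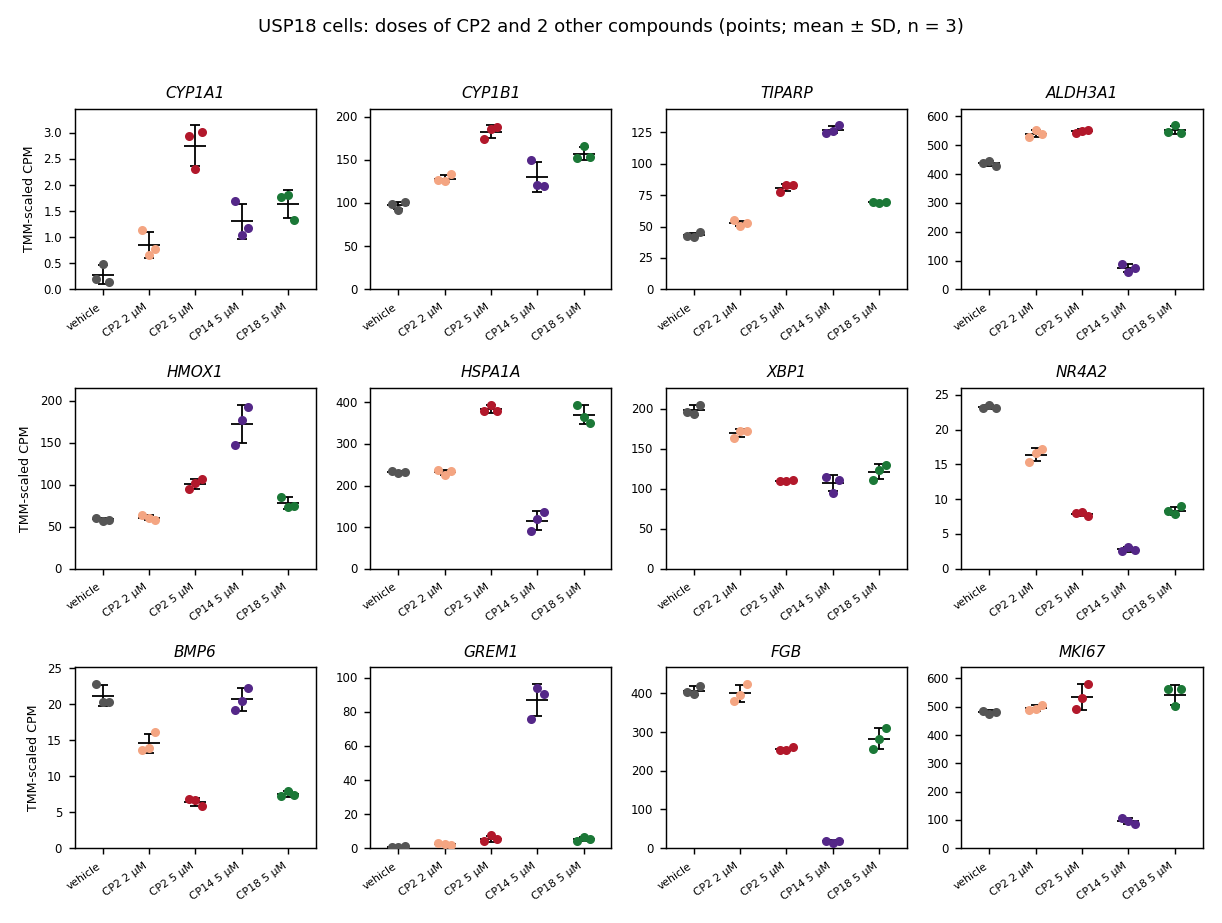
TMM-scaled CPM of 12 genes in USP18 cells with vehicle, CP2 at 2 µM and 5 µM, CP14 at 5 µM and CP18 at 5 µM; points are libraries, bars mean ± SD over 3 libraries, and each y axis starts at 0. CP2 at 2 µM lies between vehicle and 5 µM for CYP1B1, TIPARP, NR4A2 and BMP6. TIPARP is lower with CP18 than with CP2 5 µM, and CP14 stands apart for ALDH3A1, FGB, MKI67 and GREM1.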

How the data were processed

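Gene-level expected counts from RSEM were deposited by the authors as 1 table of 54 libraries, 94% of whose values are whole, and were rounded to whole numbers here. Per the notes, the authors used bcl2fastq, cutadapt 1.18, STAR 2.7.0f and RSEM 1.3.1 with hg38, although the study's methods name a later RSEM version. The 54 totals ran from 16673228 to 25609062 with a median of 19701304, and 33416 of 58870 rows held a count. 21 libraries in 7 groups were used.

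The 6 libraries were fitted with the EV groups (12 libraries), and dose and compounds in fits of 9 and 12 libraries. In R 4.3.3, filterByExpr (at least 10 counts, 15 in total), trimmed means of M-values and edgeR's quasi-likelihood test (edgeR 4.0.16, limma 3.58.1) were applied. p-values were adjusted by Benjamini-Hochberg over all genes tested. Calls required an adjusted p under 0.05 and an absolute log2 fold change over 1, and interactions an adjusted p under 0.05. The chain was tested on simulated data, where 199 of 200 changes were recovered at an adjusted p under 0.05. All of them had an absolute log2 fold change over 1 and lay in genes above the lowest levels. Recovery of smaller changes, or of changes in genes near the floor, was not tested. Between replicates, chi-square per gene was 2.02 to 8.91, so counting error alone is too narrow. Replicates were left unpaired.

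Named genes were CYP1A1, HMOX1 and USP18, the 12 largest rises and the 12 largest falls, 6 interactions, 4 rises and falls per direct comparison, up to 5 members per list, and genes known for a list. Rises and falls were ranked among genes with an adjusted p under 0.05, no overlap between the groups compared and a mean of at least 1 CPM in either. Their lack of overlap is therefore no separate result. A larger fall that overlapped, in AC008012.1 (fitted log2 fold change -7.71, edgeR adjusted p 0.0362), was left out of the 12. Other genes are marked as chosen after their values were seen. Members of the comparison and of the lists were chosen with earlier results of these data known. Lists, typed from general knowledge, are described by counts and medians without a test. Some named genes are not reported here.

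Alternatives were RLE factors, no filter, at least 10 counts in every library, replicate as block, DESeq2 1.42.0 (Wald, no shrinkage), all 54 libraries, only the groups compared, each library left out, and, chosen after seeing the data, the share of RNAs without a poly(A) tail as a covariate. Upstream bases came from RefSeq promoters of GRCh38.p14, and positions from an annotation newer than the authors'. 33 libraries of other groups were used only where all 54 were fitted.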

Additional observations from a re-analysis of the deposited data

Results flagged for a closer look

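For the genes given here the log2 fold change of CP2 5 µM against vehicle differed between USP18 and EV cells at an edgeR adjusted p under 0.05, and the difference is USP18 minus EV.

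Lower in USP18 cells were AC008012.1 (-15.82, a fitted value that is no bound and rests on counts in only 1 of the 6 USP18 libraries, vehicle replicate 2, without which the change in USP18 cells is 0), TNFSF15 (-1.95), CREB3L1 (-1.34), CXCL8 (-1.08), SCG2 (-0.99), AL161431.1 (-0.98), BMP6 (-0.84), CHGB (-0.80), NR4A2 (-0.79), CCN2 (-0.50), CREM (-0.50), FN1 (-0.41), XBP1 (-0.38), NR4A1 (-0.38), NEDD9 (-0.30), HSPA5 (-0.30), HSP90B1 (-0.27) and PDIA4 (-0.21).

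Higher in USP18 cells were SQSTM1 (0.22), FEN1 (0.25), SLC7A5 (0.25), MCM10 (0.31), PFKFB3 (0.36), JUN (0.37), UHRF1 (0.40), HMOX1 (0.40), EGR1 (0.45) and DDC (0.53).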

How the results depend on the processing

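The 122 calls of CP2 5 µM against vehicle in USP18 cells became 209 without a filter on low counts, 48 with at least 10 counts in every library, 65 with DESeq2 and 119 with replicate as block.

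In EV cells the 56 calls became 130, 11 and 6 in the same 3 settings, 32 with only the EV libraries and 24 to 74 when single libraries were left out, with 44 for the block.

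The 145 genes that differed between the cells became 438 without a filter and 221 with DESeq2, ranged from 87 to 267 over single libraries left out (131 lower and 136 higher for the 267), and were 127 with the block.

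For 5 µM against 2 µM, 97 calls became 217 without a filter, 45 with at least 10 counts in every library, 25 with DESeq2, 38 with the share of RNAs without a poly(A) tail as a covariate, a setting chosen after seeing the data whose share sets CP2 5 µM apart from all other USP18 groups used and so cannot be told from treatment, and 105 with the block. For 2 µM against vehicle, 8 calls became 60 without a filter, 2 with at least 10 counts, 0 with DESeq2 (1626 genes had an unadjusted p under 0.05 in edgeR), 2 with all 54 libraries, 5 to 16 over libraries left out and 10 with the block.

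Against CP14, 2725 calls became 2707 with the block and 2064 with the covariate. The 10980 genes without the limit on fold change became 6470 with the covariate. Against CP18, 9 calls became 60 without a filter, 5 with DESeq2, 1 with the covariate, 0 with all 54 libraries (1376 unadjusted in edgeR), 2 to 7 over libraries left out and 9 with the block.

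In the labels, replicates of different groups share only a number. Residuals of same-numbered libraries correlated by 0.0425 to 0.0894 between treated and vehicle USP18 libraries, each highest with its own number (at most 0.00994 with another). Over all pairs of groups compared, same-numbered libraries correlated by -0.264 to 0.167. Whether same-numbered libraries were handled together is not known from the labels.

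Of 159 named genes, these log2 fold changes of CP2 5 µM against vehicle changed sign or reached 0. With the covariate, RF00002, RNA5-8SN1, RNA5-8SN2 and RNA5-8SN3 were at -1.07, RMRP at -1.11, RN7SK at -1.02 and RPPH1 at -1.32. Over libraries left out, AC008012.1 ran from -8.30 to 0 (without vehicle replicate 2, the only one of the 6 with counts), FOSB from -0.21 to 0.011 and ISG15 from -0.15 to 0.092. Of the 134 genes that passed, 30 lost that in at least 1 setting, the covariate included. List medians were recomputed with RLE, DESeq2, the block and each library left out: 56 of 234 values moved by more than the spread between replicates, and 9, all with a library left out, changed sign, in 4 of 26 lists (conjugation and export of xenobiotics, NF-kB, EMT and TGF-beta, mitochondrially encoded genes). Fewer or more genes were tested where the filter changed, and otherwise the cause was not tested. Depth limits genes such as CYP1A1, whose vehicle libraries held 4, 10 and 3 counts.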
